A study of Oryza sativa with 6 samples.

Results

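The K+PEG-only sites are stretches of the rice genome where both K+PEG libraries of a BG4-DNA-IP-seq had a peak and neither K+PDS library had one. To find them, the peaks of the 4 libraries were pooled and overlapping intervals were merged into sites. Of 115855 merged sites, 11739 (10.1%) were K+PEG-only. They covered 5.30 of the 68.4 Mb in sites. The sites were chosen by the presence and absence of peaks in all 4 libraries, so the values describe them and no p-value is given. An exact permutation test of 2 libraries against 2 cannot reach 0.05, since the smallest p it allows is 1 in 3.

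A G-quadruplex (G4) forms where guanine-rich DNA folds into stacked planes of guanines, which potassium ions hold together. Polyethylene glycol (PEG) crowds the solution, as the inside of a cell does, and is used to favor G4 folding. Pyridostatin (PDS) is a small ligand that binds folded G4s and stabilizes them. BG4 is an antibody raised against the folded structure. It pulls down fragments that hold a G4 at the time of incubation, and peaks of the sequenced fragments mark those places.

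The DNA came from the above-ground part of wild-type Nipponbare seedlings at 2 weeks, after cross-linking. It was fragmented, denatured and allowed to refold, so the folding was that of purified DNA and not of chromatin. Both K+PEG libraries were incubated with BG4 in 150 mM KCl and 40% PEG, and both K+PDS libraries in 150 mM KCl and 5.0 μM PDS, as the methods describe. The protocol in the sample labels names PEG for every sample and no PDS. Input libraries (2) were sequenced as well and are not analysed here.

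The K+PDS libraries were the shallower ones. With reads taken as extended to 200 bp, the recovered depth was 7.90 and 13.3 M reads in K+PEG replicates 1 and 2, and 5.99 and 7.55 M reads in K+PDS replicates 1 and 2. Every peak name in the K+PDS lists carries the word uniq and none in the K+PEG lists does. Whether only the K+PDS reads went through a filter for unique placement is not given in the sources used here, and its part in the results was not tested. The lists hold only places past the threshold of the authors. A site without a K+PDS peak is a site below that threshold, not one shown to lack G4s.

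Sites in both K+PEG libraries numbered 53330, and they were found again in the K+PDS libraries to different degrees. Both K+PDS libraries had a peak at 27477 of them (51.5%), 1 K+PDS library did at 14114 (26.5%), and neither did at the 11739 K+PEG-only sites (22.0%). The sites with 1 K+PDS library were more often shared with replicate 1 (8236) than with replicate 2 (5878), although replicate 2 had more peaks. The peaks inside K+PEG-only sites made up 16.2% of the list of K+PEG replicate 1 (11878 peaks) and 14.4% of that of replicate 2 (11834 peaks). The mirrored set, with a peak of both K+PDS libraries and none of either K+PEG library, held 4376 sites (3.78% of all), and the sites of all 4 libraries were 23.7% of all sites.

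**Figure D1:**
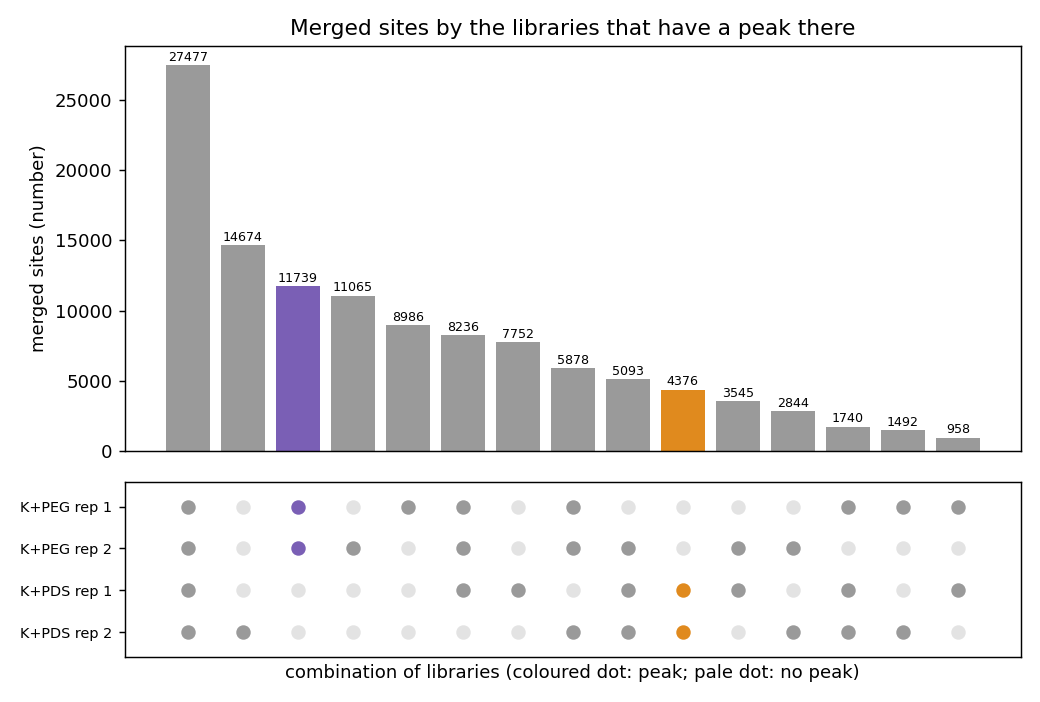
Number of merged sites (bar height) for each combination of libraries, with coloured dots below for the libraries that have a peak. K+PEG-only sites (purple, 11739) are outnumbered by sites of all 4 libraries (27477) and by sites of K+PDS replicate 2 alone (14674), and K+PDS-only sites (orange) number 4376.

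There were 2.68 K+PEG-only sites for each K+PDS-only site. This ratio stayed above 1 in 10 of 10 alternatives, but its size rested on single libraries and on the number of peaks. It was 1.01 without K+PDS replicate 1 and 1.37 without K+PDS replicate 2, settings in which 1 list alone defines the K+PDS-only sites. It was 1.41 when all lists were shortened to the length of the smallest, 2.36 when the summits were scaled to equal depth, and 5.21 when the −log10 p of every peak had to reach 5.

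K+PEG-only sites mostly held 1 peak of each K+PEG library, a share that was not computed for other kinds of site. At 11513 of them (98.1%) each K+PEG library contributed 1 peak, and only 8 sites held 2 peaks of both. The median site was 396 bp long, with 326 and 529 bp as quartiles. Sites under 300 bp numbered 1792 (15.3%) and sites of 1000 bp or more 210 (1.79%). A site grows with each library that adds a peak, so lengths were compared for the peaks of 1 library at a time. In K+PEG replicate 1, the median peak was 318 bp at K+PEG-only sites, 508 bp at sites of all 4 libraries and 383 bp over the whole list. In replicate 2 the medians were 329, 581 and 401 bp. The rule favors short peaks, since a longer one more easily overlaps a peak of the other condition. Its part in these lengths was not tested. Both libraries had shorter peaks at K+PEG-only sites than over their lists. The same held for K+PDS-only sites, where the median peak was 309 bp in K+PDS replicate 1 and 314 bp in replicate 2, against 376 and 358 bp over those lists.

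The peaks of the K+PEG replicates lay close together within a site. Their summits, the points with the most reads, were a median of 47 bp apart, and 76.9% of the K+PEG-only sites had them within 100 bp. At 567 sites (4.83%) they were over 300 bp apart. The segment covered by the strongest peak of both replicates had a median of 261 bp. At the sites of all 4 libraries, which are longer and hold more peaks, the K+PEG summits were a median of 62 bp apart.

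The fold enrichment of a peak is the number of reads at its summit over a local background, each plus 1. Where a library had several peaks in a site, the strongest was used. The median fold enrichment at K+PEG-only sites was 3.51 in replicate 1 (quartiles 2.94 and 4.32) and 3.40 in replicate 2 (2.79 and 4.27). Behind these values were a median of 20 reads at the summit in replicate 1 and 31 in replicate 2. Within the same libraries, K+PEG-only sites stood between the sites of that library alone and the sites of all 4 libraries. The medians were 3.06, 3.51 and 4.68 in this order for replicate 1, and 2.85, 3.40 and 4.99 for replicate 2. These classes are defined by how many lists called a site, so their order is partly set by the choice of sites. Sites of all 4 libraries also hold more peaks from which the strongest was taken. The ranges overlapped widely, since the upper quartile of K+PEG-only sites lay above the lower quartile of sites of all 4 libraries in both replicates.

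**Figure D2:**
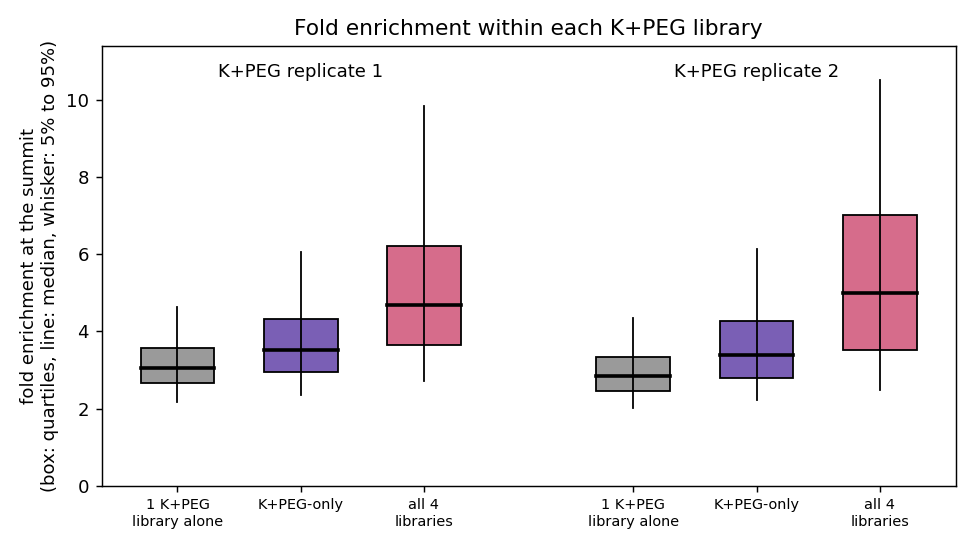
Fold enrichment of the strongest peak per site in each K+PEG library (box, quartiles, line, median, whisker, the 5th to the 95th percentile over sites) at sites of that library alone (grey), K+PEG-only sites (purple) and sites of all 4 libraries (pink). The medians rise in this order in both replicates, from 3.06 to 3.51 and 4.68 in replicate 1 and from 2.85 to 3.40 and 4.99 in replicate 2, and the boxes overlap.

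Stricter cuts left most of these sites in place. Of the replicate 1 peaks in K+PEG-only sites, 9080 (76.4%) had a −log10 p of at least 5, against 80.0% of all peaks of that library. In replicate 2, 10254 (86.6%) did, against 84.9%. Both replicates passed this cut at 8065 sites (68.7%), against 81.5% of all sites in both K+PEG libraries. A q-value of at most 0.05 was reached by 99.6% and 99.8% of the peaks in replicates 1 and 2, against 99.7% of all peaks in each. These shares are close to those of the whole lists in each library, and lower where both libraries were asked at once.

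The replicates ranked the K+PEG-only sites only loosely. Replicate 1 had the higher fold enrichment at 6395 sites (54.5%), with a median ratio of replicate 1 to replicate 2 of 1.04. The values lay within 1.5 times of each other at 9371 sites (79.8%) and over 2 times apart at 343 (2.92%). Across the 11739 sites, which share libraries and are not replicates, the Spearman correlation of the fold enrichments was 0.39 and the Pearson correlation 0.45. The Spearman value was 0.59 at the sites of all 4 libraries, where the range of enrichment is wider.

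The lower of the fold enrichments of a site shows how strong it was in its weaker replicate. For K+PEG-only sites its median was 3.04, with 2.14 and 5.01 as the 5th and 95th percentiles. It was over 4 at 2002 sites (17.1%), over 5 at 593 (5.05%) and over 8 at 17 (0.145%). Among all sites in both K+PEG libraries, the share without a K+PDS peak fell steadily with this value. It was 38.8% for sites between 2 and 2.5, 24.9% between 3 and 4, 7.91% between 5 and 6 and 0.749% above 8. Of the 2271 sites above 8, 91.1% had a peak of both K+PDS libraries. Strong K+PEG sites were seldom K+PEG-only. Weak ones were so more often, but most of them had a K+PDS peak too. At 2 or less, 22.5% had a peak of 1 K+PDS library and 38.3% of both. The part of peak length in these shares was not tested.

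**Figure D3:**
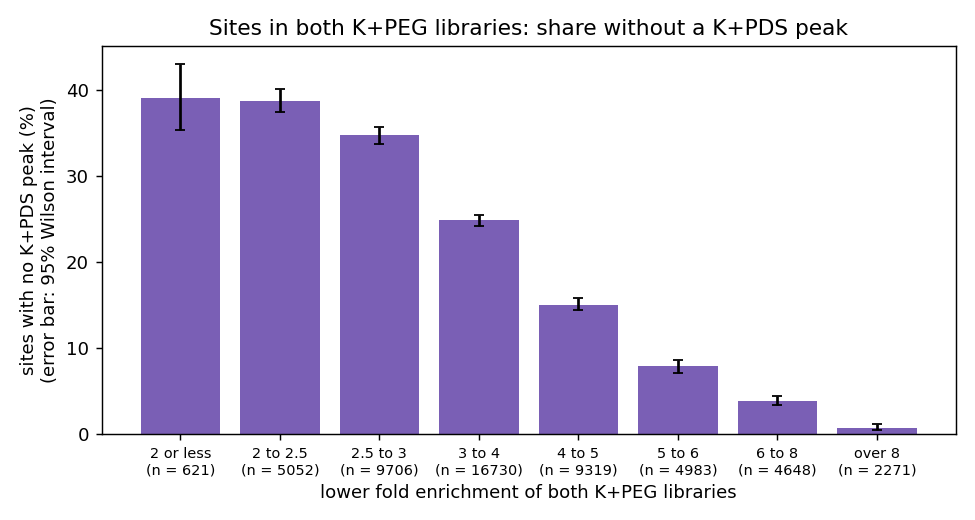
Share of sites in both K+PEG libraries that have no K+PDS peak (bars, with 95% Wilson intervals that cover counting error only), by the lower fold enrichment of both K+PEG libraries, with the number of sites under each bar. The share falls from 39.1% at 2 or less to 0.749% above 8.

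The K+PEG enrichment was also expressed at the depth of the K+PDS libraries. The reads at each K+PEG summit and its background were multiplied by the ratio of depths, rounded down and scored again. At the depth of K+PDS replicate 1, 99.0% of the sites passed with the enrichment of K+PEG replicate 1 and 95.6% with that of replicate 2, from a median of 15 and 13 scaled reads. At the depth of K+PDS replicate 2, 99.8% and 98.4% passed. All 4 combinations passed at 11127 sites (94.8%). The scaled values sat close to the cut at many sites. At the depth of K+PDS replicate 1, the scaled −log10 p came to 5 or more at 55.8% of the sites from replicate 1 and at 44.7% from replicate 2, against 80.7% and 74.7% at the sites of all 4 libraries. The scaled reads are those that the choice of sites used, since every site had to pass in both K+PEG libraries, and a high share is largely set by that choice. Counting noise is not included. The shares describe the K+PEG reads, and the part of depth in the missing K+PDS peaks was not tested.

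The local background at K+PEG-only sites was close to that of all sites. It is the level expected without enrichment, and its lowest value in a list is the library spread evenly over the genome. At K+PEG-only sites its median was 1.15 times that floor in both K+PEG libraries, against 1.13 and 1.12 over all sites in replicates 1 and 2. The upper quartile (1.32) and the highest value (7.68) were also the same in both libraries, so the backgrounds are not independent measures. It reached at least 2 times the floor for 1.03% of the peaks in each replicate, against 1.53% and 1.43% of all peaks of replicates 1 and 2. The median was slightly higher than over all sites and the share of high values slightly lower.

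The strongest K+PEG-only sites, ranked by the lower fold enrichment of both replicates, lay between 634 and 3441 bp from the nearest K+PDS peak. Positions are those of MSU v7.0, and neither its gene annotation nor its sequence was used here. The highest lies on chromosome 2 from 17459359 to 17459807 (449 bp). It was enriched 12.3-fold in replicate 1 (66 reads) and 9.83-fold in replicate 2 (83 reads), and the nearest K+PDS peak was 2464 bp away. It is one of 3 sites of chromosome 2 among the 5 strongest. The other two lie from 9857945 to 9858387, with 9.43 and 9.55, and from 21745481 to 21746586, with 9.11 and 10.1. The summits of both replicates were 1 bp apart in the former and 3 bp apart in the latter.

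On chromosome 7, the site from 10962456 to 10963170 was enriched 9.50-fold (48 reads) and 9.60-fold (76 reads), and its nearest K+PDS peak was 3441 bp away. On chromosome 9, the site from 14057160 to 14057955 was enriched 9.29-fold (50 reads) and 12.4-fold (105 reads), the most reads of these 5 sites in replicate 2. In all 5 the values of both replicates were within 1.5 times of each other, as at 79.8% of all K+PEG-only sites. Ranking by the lower value favors such sites. The site of chromosome 2 from 21745481 had the K+PDS peak nearest to it, at 634 bp.

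Each chromosome had strong K+PEG-only sites. The strongest of each of the 12 chromosomes had a lower fold enrichment between 7.36 on chromosome 6 (from 8679472 to 8680576) and 9.83 on chromosome 2. Their summits held 39 to 66 reads in replicate 1 and 58 to 105 in replicate 2. They were 449 to 1454 bp long and 491 to 6154 bp from a K+PDS peak. The farthest from K+PDS peaks was that of chromosome 11, from 23864857 to 23865450, with 7.41 and 7.58, and the nearest was that of chromosome 4, from 2210466 to 2211550, with 8.53 and 8.48. The 17 sites with a lower value over 8 fell on 9 chromosomes, with 3 each on chromosomes 1, 2 and 4 and none on chromosomes 3, 6 and 11.

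The 3 longest K+PEG-only sites varied in strength. The longest, of 1902 bp, lies on chromosome 3 from 23384309 to 23386210 and joins 2 peaks of replicate 1 to 1 of replicate 2, with a fold enrichment of 3.90 and 6.36. The site of chromosome 4 from 27836698 to 27838302 (1605 bp) had 3.96 and 3.91. The second longest, on chromosome 8 from 1125180 to 1127019 (1840 bp), was the strong one of the 3, with 8.44 and 7.89. Over all K+PEG-only sites, length and lower fold enrichment had a Spearman correlation of 0.22.

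At the edges of the rule the values were as follows. The weakest K+PEG-only site by −log10 p, on chromosome 5 from 6970747 to 6971084, had 4.31 in replicate 1 and 2.02 in replicate 2, where the threshold is 2. The site nearest to a K+PDS peak, on chromosome 5 from 28272772 to 28273315, touches it without sharing a base, and had a fold enrichment of 7.75 and 4.36. Just outside, the site of chromosome 3 from 8624605 to 8625406 shares 1 bp with a peak of K+PDS replicate 2. It had 4.92 and 3.85 under K+PEG and 2.64 in that library. Such narrow misses were few. Of the 41591 sites in both K+PEG libraries that have a K+PDS peak, 144 shared under 50 bp with it.

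The distance from K+PEG-only sites to K+PDS peaks varied widely. It was not computed for random places, so it does not show whether the sites lay nearer to these peaks than other places. The gap to the nearest K+PDS peak had a median of 1655 bp and quartiles of 640.5 and 3619 bp. It was under 200 bp at 768 sites (6.54%) and under 1000 bp at 4208 (35.8%). At 1803 sites (15.4%) it was 5000 bp or more, and at 14 it was over 20000 bp, up to 44003 bp. Merging also hides some places of this kind inside longer sites. Of 13442 segments shared by peaks of both K+PEG libraries and free of K+PDS peaks, 1469 (10.9%) lay in sites where a K+PDS peak joined at another point, and the rest were in K+PEG-only sites.

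Along the genome, K+PEG-only sites, K+PDS-only sites and sites of all 4 libraries were each found next to their own kind more often than their share of all sites. Of the 23478 neighbouring sites of K+PEG-only sites, 14.0% were K+PEG-only, against 10.1% of all sites, and 1.47% were K+PDS-only, against 3.78%. The neighbours of K+PDS-only sites were K+PEG-only in 3.95% and K+PDS-only in 11.7%, a larger excess over 3.78% than that of K+PEG-only sites over 10.1%. Those of sites of all 4 libraries were of their own kind in 28.5%, against 23.7% of all sites. Most K+PEG-only sites (8702, 74.1%) had another kind of site on both sides. The others formed 1183 pairs, 182 runs of 3, 25 runs of 4 and 5 runs of 5. These counts have no reference here from other kinds of site or a random order, so they do not show clustering by themselves.

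The runs of 5 lie on chromosome 1 from 23739671 to 23764982, on chromosome 2 from 27946599 to 27957220, on chromosome 5 from 4618281 to 4625473 and from 29487177 to 29493545, and on chromosome 7 from 28920057 to 28928667. They span between 6369 and 25312 bp. Within the run of chromosome 1, the fold enrichment ranged from 2.29 to 6.14 in replicate 1 and from 3.08 to 5.95 in replicate 2. In the shortest run, the second one on chromosome 5, it ranged from 2.77 to 5.48 and from 2.87 to 5.25. Both runs held sites below and above the median strength side by side.

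K+PEG-only sites were found on all 12 chromosomes, with shares between 9.15% of the sites of chromosome 4 and 11.6% of those of chromosome 3. Chromosomes 1 and 2 followed with 11.3% and 11.1%. The share of K+PDS-only sites was lowest on chromosome 3 (2.59%) and highest on chromosome 12 (4.65%), close to the 4.63% of chromosome 4. The ratio of K+PEG-only to K+PDS-only sites was 4.46 on chromosome 3 (1285 to 288) and 1.98 on chromosome 4 (1033 to 522). It was higher on chromosome 3 than on chromosome 4 in 10 of 10 alternatives, and chromosome 3 had the highest ratio of all in 9 of them. Chromosome 4 had the lowest ratio in 6 of the 10, and chromosome 12 in the others. Chromosomes 3 and 4 were picked as the extremes of the 12, and the alternatives reuse the same lists. Without K+PDS replicate 1, chromosome 2 had the highest and the ratio of chromosome 4 fell to 0.842. The strength of K+PEG-only sites differed little between chromosomes, with medians per chromosome from 3.46 to 3.58 in replicate 1 and from 3.33 to 3.50 in replicate 2.

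**Figure D4:**
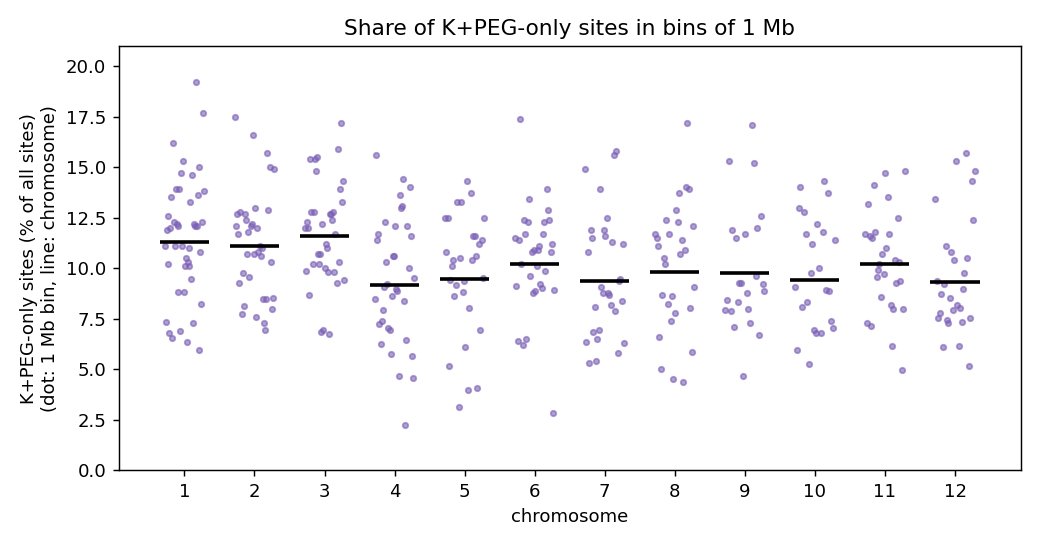
K+PEG-only sites as a share of all merged sites in bins of 1 Mb (dots, in no order within a chromosome) and over each chromosome (black lines), for the 378 bins with at least 50 sites. The chromosome shares lie between 9.15% and 11.6%, whereas single bins range from 2.25% to 19.2%.

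Bins of 1 Mb hold far fewer sites than chromosomes, so counting error adds more to the spread of their shares. Its part in the range was not tested. Over the 378 bins of 1 Mb with at least 50 sites, the share of K+PEG-only sites had a median of 10.5% and ranged from 2.25% to 19.2%. The lowest shares were on chromosome 4 from 9000001 to 10000000 (7 of 311 sites, 95% Wilson interval 1.09 to 4.57%), chromosome 6 from 18000001 to 19000000 (12 of 423, 2.84%) and chromosome 5 from 10000001 to 11000000 (13 of 414, 3.14%). In these bins K+PDS-only sites were more numerous, with 22, 46 and 27. The highest shares were on chromosome 1 from 30000001 to 31000000 (61 of 318 sites, 19.2%, interval 15.2 to 23.9%) and from 6000001 to 7000000 (52 of 294, 17.7%), and in the first bin of chromosome 2 (44 of 251, 17.5%). These held 4, 9 and 12 K+PDS-only sites. The intervals cover counting error only, and these bins were picked as the extremes of all 378.

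K+PDS-only sites outnumbered K+PEG-only sites in 26 of the 378 bins. Of these, 8 were on chromosome 4, between 2000001 and 16000000, and 5 on chromosome 5, between 9000001 and 16000000, while chromosomes 2 and 3 had none. At the other end, 35 bins had at least 10 times as many K+PEG-only as K+PDS-only sites. Across bins, the numbers of both kinds had a Spearman correlation of −0.49. The numbers of K+PEG-only sites and sites of all 4 libraries had one of −0.34. The numbers of K+PEG-only sites and all sites had one of −0.17. A site counts in 1 kind only, and the part of this in the first 2 values was not tested. Bins share the same 4 libraries, so these values are descriptions. The number of bins with more K+PDS-only sites depended on the lists. It was 177 without K+PDS replicate 1, 100 without K+PDS replicate 2 and 6 without K+PEG replicate 1. It was 92 with all lists as long as the smallest and 16 when K+PDS peaks had to be over 1000 bp away. It was 4 when the −log10 p had to reach 5, a cut that asks for more enrichment in the shallower K+PDS libraries.

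Pooled over the 12 chromosomes, K+PEG-only sites were least frequent toward the middle of the chromosomes. When each chromosome was divided into 10 parts of equal length, they made up 10.5% of the sites in part 1, 7.79% in part 5 and 12.2% in part 10. Part 5 held 12355 sites in all and part 10 held 10478, so K+PEG-only sites were fewest (963) where sites in general were numerous. K+PDS-only sites went the other way, with 3.58%, 4.89% and 2.96% in parts 1, 5 and 10. As a share of sites in both K+PEG libraries, K+PEG-only sites went from 22.6% to 17.2% and 25.7%. The median of the lower fold enrichment changed little, from 3.08 in parts 1 and 5 to 2.95 in part 10.

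**Figure D5:**
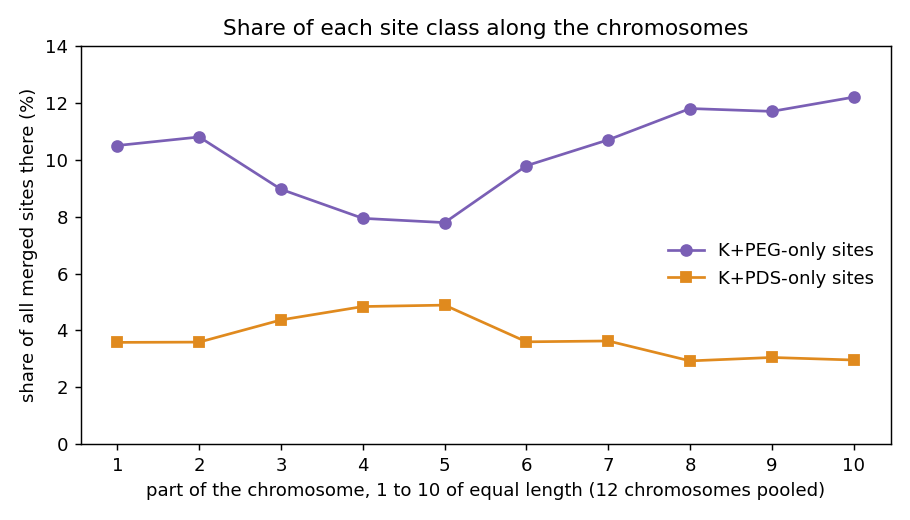
K+PEG-only (purple) and K+PDS-only (orange) sites as a share of all merged sites (vertical axis, %) in each of 10 equal parts of the chromosomes (horizontal axis), 12 chromosomes pooled. The K+PEG-only share is lowest in part 5 (7.79%) and highest in part 10 (12.2%), and the K+PDS-only share is highest in part 5 (4.89%).

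The beginnings of chromosomes 11 and 12 are known to share a duplicated segment. In the first 2 Mb, K+PEG-only sites made up 11.7% of the sites of chromosome 11 (64 of 546) and 12.3% of those of chromosome 12 (66 of 538), against 10.1% and 9.13% in the rest of these chromosomes. As a share of sites in both K+PEG libraries, the values were 23.5% and 26.5% in the first 2 Mb and 21.7% and 19.8% in the rest. The first 2 Mb of the other 10 chromosomes ranged from 8.12% on chromosome 9 to 13.5% on chromosome 2, a range that includes both values.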

How the data were processed

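BG4-DNA-IP-seq peak lists of 2 K+PEG and 2 K+PDS libraries were used. The authors trimmed reads (Trim Galore), aligned them to MSU v7.0 (BWA), kept alignments longer than 50 bp, removed duplicates (SAMtools) and ran MACS2 on each library at p = 0.01. The control given to MACS2 is not given in the sources used here. The deposited lists hold the fold enrichment as a linear ratio, the −log10 p and the −log10 q at the summit, and a browser score that was not used. Reads at a summit and its background were solved from fold enrichment and p under a Poisson distribution, and came out whole (within 0.05) for all but 4 peaks. Depth was taken from the lowest background, with a genome size of 380000000 bp and an assumed extension of 200 bp.

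Peaks sharing at least 1 bp were merged in Python 3.11.15 with pandas 2.3.3 and scipy 1.17.1. Starts are printed counted from 1. Merging and the recovery of reads were tested on simulated data. K+PEG-only sites were chosen with earlier results of these data known, and so were the lists and alternatives. Named were the 5 strongest sites, the strongest of each chromosome, the 3 longest, those at the edges of the rule, the 3 bins with the highest and lowest shares, and the longest runs, of which all 5 tied runs are given. Sequence and annotation of MSU v7.0 were not used here.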

Additional observations from a re-analysis of the deposited data

How the results depend on the processing

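The values were recomputed under the alternatives named in the text. With no K+PDS peak within 1000 bp, 7528 K+PEG-only sites were left, the ratio to K+PDS-only sites was 3.90, and 16 bins of 1 Mb had more K+PDS-only than K+PEG-only sites. With a −log10 p of at least 5 the ratio was 5.21, the median length 451 bp, the median lower fold enrichment 3.49, the share of sites that passed when scaled to K+PDS depth 100%, and the number of such bins 4. There, 8065 of the 11739 sites were still K+PEG-only among 13266. That cut asks for more enrichment in the shallower K+PDS libraries. With all lists cut to the length of the smallest, these values were 1.41, 408 bp, 3.34, 100% and 92. In both settings only the stronger K+PEG peaks were kept before they were scored again, so the 100% says nothing further. With equal depth by scaling, the ratio was 2.36 and the share 100%, which holds by construction, and 11127 of the 11739 sites (94.8%) were kept. With peaks up to 200 bp apart joined, the ratio was 2.85 and the median length 405 bp. The shared segment had a median of 261 bp. Without 1 library at a time, the number of sites was 17848 to 23367, the ratio 1.01 to 3.80, the median length 292 to 451 bp, the median lower fold enrichment 3.08 to 3.28, the share that passed 92.2 to 98.3%, and the number of bins 6 to 177. The rule then rests on fewer lists, so that more sites meet it. On chromosome 4, where the ratio was 1.98, it ranged from 0.842 (without K+PDS replicate 1) to 3.07 when 1 library was left out. Requiring 50 bp of overlap gave 11882 sites, a ratio of 2.75 and a median length of 395 bp. There, the median lower fold enrichment was 3.05, the share that passed 94.8% and the number of bins 27. Chromosome 12 then had the lowest ratio. Taking the mean fold enrichment per library gave a median lower value of 3.04. No paired analysis was possible because the results come from counts over sites and no test was run. GC content and motifs were not run, since no genome of MSU v7.0 was used here. The lists show nothing below their threshold.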
